A study of Homo sapiens with 22 samples.

Results

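The comparison described here is the second interval of the glucocorticoid response in MDA-MB-231 cells, the difference between RNA after 4 h and after 2 h of dexamethasone (Dex). It rests on 4 of the 22 samples in the series: Dex 2 h replicates 1 and 2 and Dex 4 h replicates 1 and 2. MDA-MB-231 is an established human triple-negative breast cancer (TNBC) cell line from a breast adenocarcinoma, and it carries a mutant p53. Before treatment the cells were kept in phenol red-free medium with charcoal-stripped serum, which removes steroid hormones, and they then received 100 nM Dex. The references were 2 vehicle samples and 4 samples given 10 μM compound A (CpdA), a plant-derived ligand of the glucocorticoid receptor, for 2 h or 4 h (2 replicates each). No time is given for vehicle in the sample labels. The deposited column headers named vehicle replicate 1 for 2 h and vehicle replicate 2 for 4 h, so the vehicle difference over the same interval had 1 sample at each time.

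The glucocorticoid receptor (GR) is a ligand-activated transcription factor. Bound by a glucocorticoid such as Dex, it enters the nucleus, binds glucocorticoid response elements or other transcription factors, and raises or lowers transcription of nearby genes within minutes. RNA measured after a few hours holds the early response, genes whose transcripts are still accumulating or decaying, and genes whose change begins later. The question asked of these samples was which responses were already complete at 2 h, which were passing, and which appeared or grew by 4 h.

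Values were RPKM, read counts scaled to transcript length and to the mapped reads of the library, analysed as log2(RPKM + 0.1), a scale that understates the change of low genes. Of 20668 gene symbols, 12713 reached 0.5 RPKM in 2 or more of the 10 RNA-seq samples and were tested with limma, with p-values adjusted over all of them by the Benjamini-Hochberg method. Relative depth, read from the RPKM step worth 1 read, ran from 1.0 to 1.21 over the 10 samples. Duplicates differed with an SD of 0.225 on the log2 scale for Dex 2 h and 0.272 for Dex 4 h, the widest of the 5 groups. The mesenchymal markers of the cell line were present in every RNA-seq sample (AXL at 212 to 264 RPKM), whereas the estrogen and progesterone receptor genes ESR1 and PGR did not exceed 0.00484. Other genes of the same luminal or HER2 list were expressed in every sample: ERBB2, the HER2 gene, at 15.9 to 21.6 RPKM, EPCAM at 8.02 to 10.6 and GATA3 at 3.75 to 6.6. Listed markers of leukocytes other than CD14, and those of endothelium and hepatocytes, stayed under 0.5 RPKM in all 10 samples. The luminal list, of which 4 of 7 markers stayed under 0.5 RPKM, summed to 33.6 and 34.6 RPKM at Dex 2 h and to 35.2 and 37.3 at Dex 4 h, with GATA3 higher at 4 h (log2 0.62). The 6 mesenchymal markers had a median log2 difference of -0.03 between the Dex times, and 1 of them, AXL, passed an adjusted p of 0.05 without a fold limit (247 and 248 RPKM, then 212 and 226). In bulk RNA, fewer cells of a kind and less RNA per cell cannot be told apart, and the part of these markers in the results was not tested.

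From 2 h to 4 h of Dex, 170 genes rose (1.34% of those tested) and 267 fell (2.1%) at a fold above 1.5 and an adjusted p under 0.05 (limma). Above a fold of 2 there were 50 higher (0.393%) and 48 lower genes (0.378%). The genes nearest the 1.5-fold limit had log2 differences of 0.585 and -0.587 inside it and 0.583 and -0.585 outside it. Both 4 h samples lay above both 2 h samples in 20.3% of all genes and below both in 32.8%, so separation of the duplicates alone was common and leaned downwards. The median log2 difference of all genes was -0.03. Median scaling of the samples turned the 170 higher and 267 lower genes into 207 and 207, and quantile normalization into 198 and 202, so the excess of lower genes did not hold under either scaling. The number of lower genes was 494 without Dex 4 h replicate 2, 164 and 155 without Dex 2 h replicate 1 or 2, and 122 with a pseudocount of 1, which left 110 higher genes. The study calls the duplicates biological, but the labels do not say that they came from separate cultures, and the p-values measure the spread between these samples.

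Relative to the mean of both vehicle samples, 256 genes (2.01%) passed a fold of 2 and an adjusted p of 0.05 at Dex 2 h and 481 (3.78%) at Dex 4 h. The 519 genes that passed at either time were sorted by whether they also moved between the times, at the 1.5-fold limit. Sustained genes, past the limit at both times without moving, numbered 103 raised and 51 lowered. Still growing genes, already different from vehicle at 2 h and further from it at 4 h, numbered 84 raised and 74 lowered. Late genes, past the limit at 4 h and not past an adjusted p of 0.05 against vehicle in that direction at 2 h, numbered 30 raised and 44 lowered. Late does not mean unchanged at 2 h: their median log2 difference from vehicle was then 0.35 in the raised and -0.25 in the lowered genes. Transient genes, past the limit at 2 h and moved back by 4 h, numbered 18 in all, of which 8 had partly returned and 10 had returned. This class is small and moved with the processing, to 10 genes without Dex 4 h replicate 1 and to 9 with a pseudocount of 1. The other 115 genes (61 raised, 54 lowered) passed at 1 time and did not move, and were left unresolved. The classes use the same contrasts that define them, so their sizes and their time differences are descriptions and not tests. All members of the late, still growing and transient classes moved by rule, and they made up 250 of the 437 genes that moved, leaving 187 that passed the limits against vehicle at neither time.

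**Figure D1:**
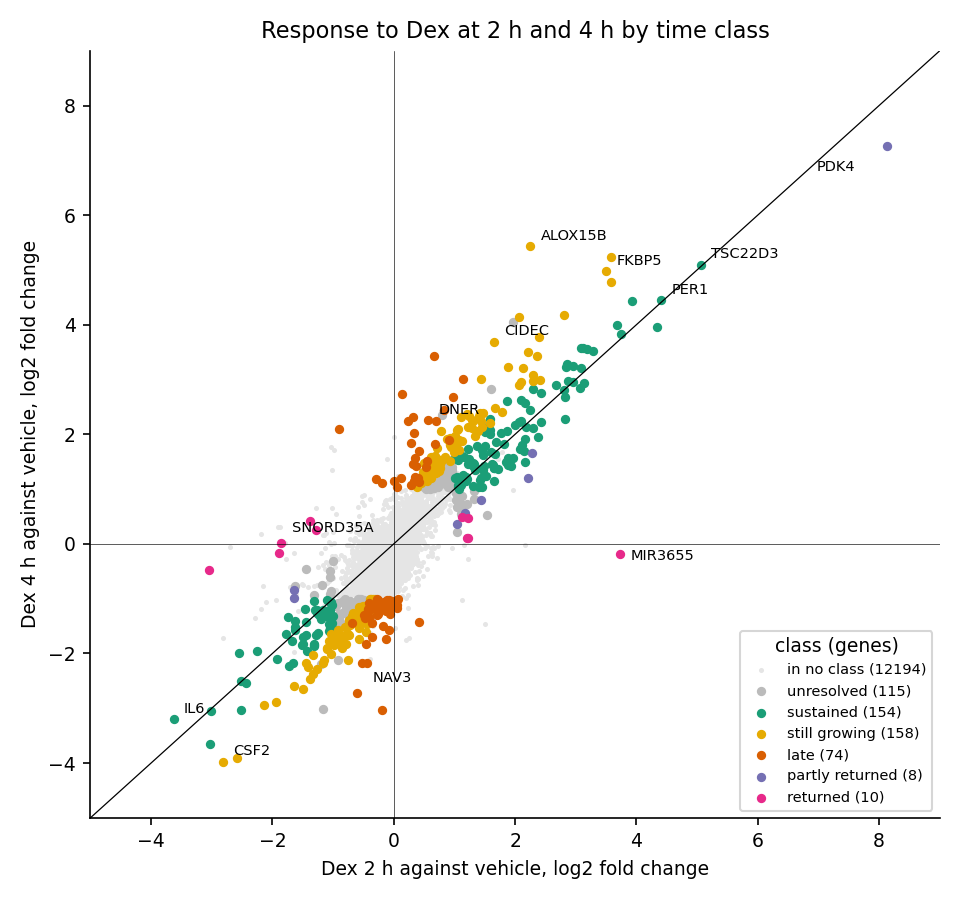
Log2 fold change against the mean of both vehicle samples at Dex 2 h (horizontal axis) and Dex 4 h (vertical axis), 1 point per gene of 12713 tested, coloured by time class with the number of genes in the legend, and the diagonal marking equal change. Sustained genes lie along the diagonal up to TSC22D3, ALOX15B and FKBP5 lie above it, and PDK4 is the highest transient gene below it.

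Still growing raised genes included the classical GR target FKBP5. FKBP5 encodes a co-chaperone that lowers the affinity of GR for its ligand. Its RPKM was 5.94 and 7.06 in vehicle, 75.0 and 73.4 at Dex 2 h, and 203 and 212 at Dex 4 h, a log2 difference between the times of 1.48 (SE 0.07, adjusted p = 2.1e-05, limma). The 4 h samples lay far above the 2 h samples, and the duplicates were close at each time. Among called genes reaching a mean of 1 RPKM the greatest increase was in ALOX15B, an arachidonate lipoxygenase, with 0.014 RPKM in each vehicle sample, 0.392 and 0.498 at 2 h, and 4.95 and 4.69 at 4 h (log2 difference 3.18, SE 0.21, adjusted p = 8.8e-05). SGPP2, a sphingosine-1-phosphate phosphatase, rose from 0.944 and 0.912 RPKM to 3.87 and 4.61 (log2 2.07, SE 0.18). CIDEC, a lipid droplet protein, rose from 0.287 and 0.316 to 1.51 and 1.58 (log2 2.04, SE 0.23). ACSL1, which activates long-chain fatty acids, went from 25.7 and 25.9 to 45.6 and 49.6 (log2 0.88, SE 0.05). Of these genes, ALOX15B and CIDEC were nearly silent in vehicle and ACSL1 was expressed throughout. ALOX15B and CIDEC reached 0.5 RPKM only at Dex 4 h, passed the filter through that group alone, and could only be called higher there.

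Other still growing raised genes covered a wide range of levels. The metallothionein gene MT1X, whose product binds zinc and copper, stood at 32.5 and 35.1 RPKM in vehicle, 178.8 and 181 at 2 h and 280.5 and 261 at 4 h (log2 difference between the times 0.59, SE 0.05). CDKN1C, the cyclin-dependent kinase inhibitor p57, rose from 20.2 and 20.1 to 33.7 and 30.6 (log2 0.67, SE 0.15). KDR, the receptor VEGFR2, rose from 4.29 and 4.80 to 10.6 and 13.6 (log2 1.39, SE 0.13). In each of these genes both 4 h samples exceeded both 2 h samples. PNMT, the enzyme that makes adrenaline from noradrenaline, had 1.69 and 2.06 RPKM at 2 h and 5.00 and 3.87 at 4 h. The pseudogene ZDHHC8P1 rose from 1.10 and 1.49 to 4.80 and 3.76, and as a pseudogene it may share reads with related copies.

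Late raised genes were mostly low in these cells. Their median RPKM in vehicle was 0.311, against 8.5 over all genes tested. The filter kept any gene with 0.5 RPKM in 2 samples, so a gene low elsewhere could enter through Dex 4 h alone. Such a gene could only be called higher at 4 h, so the low median is in part set by the filter. PTPN13, a non-receptor tyrosine phosphatase, had 0.817 and 0.979 RPKM in vehicle, 1.07 and 1.26 at 2 h, and 3.36 and 4.59 at 4 h (log2 difference between the times 1.68, SE 0.17, adjusted p = 0.00044). DNER, a transmembrane protein of the Notch pathway, had 0.488 and 0.664 and then 1.91 and 2.25 (log2 1.70, SE 0.18). At 4 h the samples of both genes stood clear of every vehicle and 2 h sample. LINC00880, a long noncoding RNA gene, was less separate, with 0.954 and 1.01 at 2 h, 2.22 and 1.89 at 4 h, and 0.329 and 0.678 in vehicle. Against the lone vehicle sample of its own time it was 1.34 higher on the log2 scale at 2 h and 1.47 higher at 4 h. Its late class thus rests on the mean of both vehicle samples. ZBTB16, a zinc finger repressor known as a GR target in many tissues, was listed at 0 in both vehicle samples and in Dex 2 h replicate 2, at 0.0212 RPKM in Dex 2 h replicate 1, and at 0.525 and 0.602 at Dex 4 h. With a pseudocount of 1 in place of 0.1, 15 of the 74 late genes stayed in the class.

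**Figure D2:**
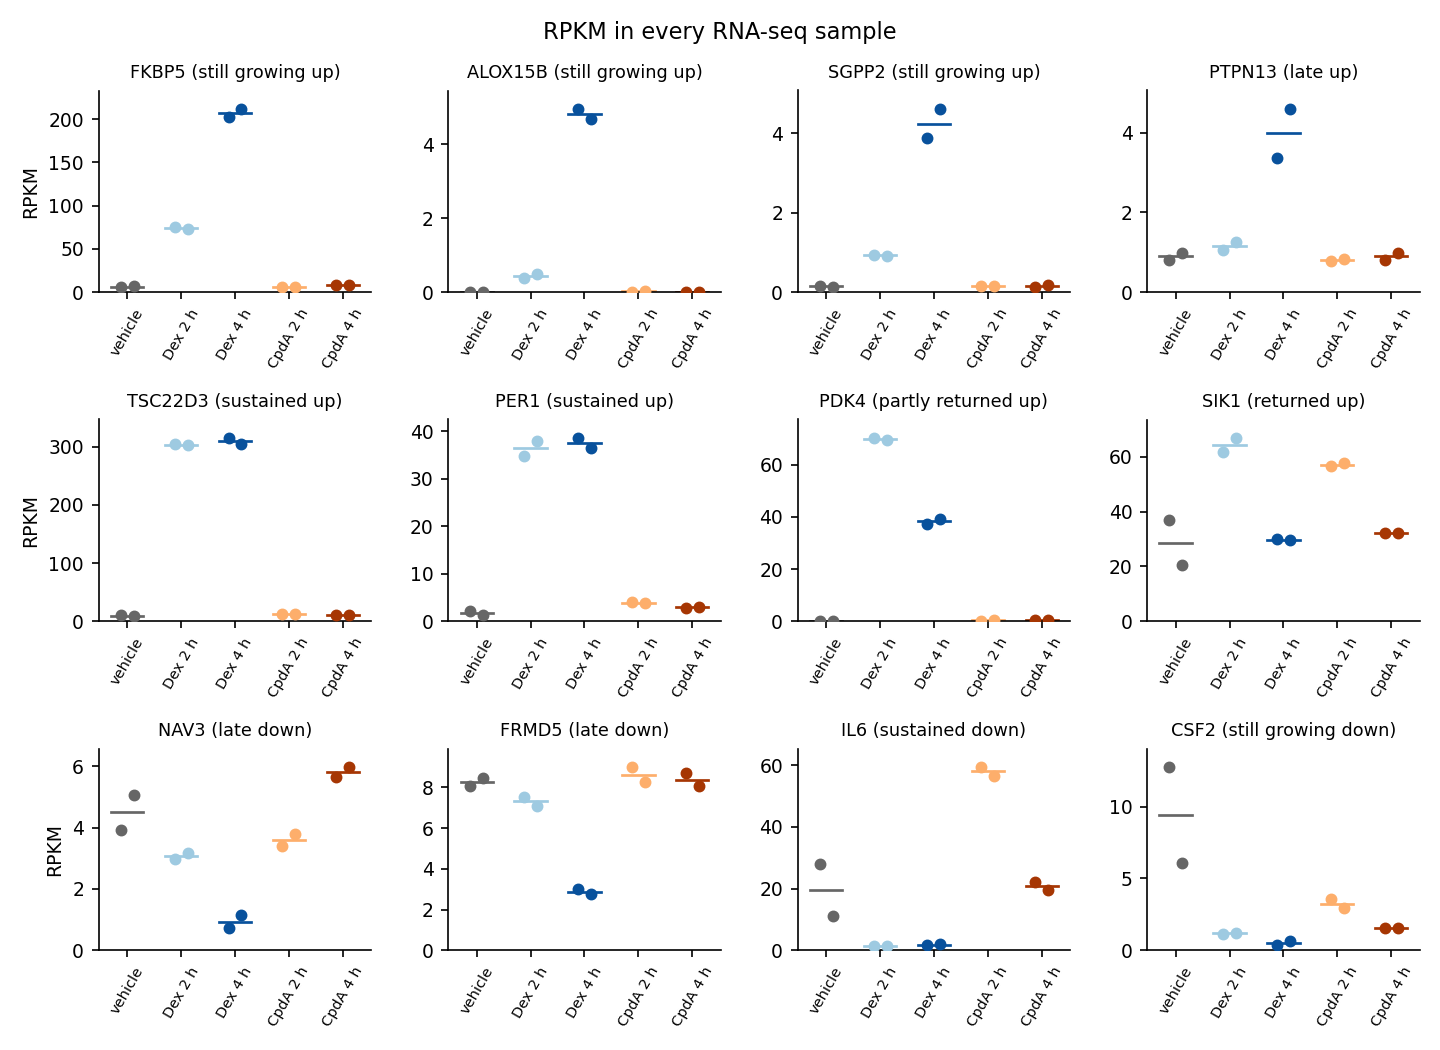
RPKM (linear vertical axis from 0) of 12 genes in each of the 10 RNA-seq samples, 1 point per sample and a line at the mean of the 2 replicates of each group, replicate 1 on the left. FKBP5, ALOX15B, SGPP2 and PTPN13 were highest at Dex 4 h, TSC22D3 and PER1 were not called between the times, PDK4 and SIK1 fell from 2 h to 4 h, NAV3 and FRMD5 were lowest at Dex 4 h, and IL6 and CSF2 were lower in all 4 Dex samples than in vehicle and CpdA.

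Sustained raised genes included TSC22D3. TSC22D3, which encodes the anti-inflammatory leucine zipper protein GILZ, had 9.79 and 8.22 RPKM in vehicle, 304 and 302 at 2 h, and 315 and 305 at 4 h (log2 difference between the times 0.03, SE 0.07, adjusted p = 0.80). PER1, a repressor of the circadian clock, had 34.9 and 37.9 at 2 h and 38.7 and 36.6 at 4 h (log2 0.05, SE 0.17). FGD4, an activator of the GTPase CDC42, had 6.26 and 6.06 at 2 h and 7.69 and 9.91 at 4 h (log2 0.50, SE 0.16, adjusted p = 0.07). SMIM3, a small membrane protein, had 77.1 and 70.0 and then 96.7 and 86.4 (log2 0.31, SE 0.10, adjusted p = 0.06). The PER1 samples overlapped between the times, and those of FGD4 and SMIM3 did not, although neither difference passed the test. Sustained here means that no move above 1.5-fold was called, not that the levels were shown to be equal. The SE pools the spread of all 5 groups and treats the 2 vehicle samples as replicates. A wide gap between the vehicle samples of a gene therefore widens its SE and makes a call less likely.

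Transient raised genes were few. PDK4, a kinase that turns off pyruvate dehydrogenase and so limits glucose oxidation, had 0.158 and 0.140 RPKM in vehicle, 70.4 and 69.4 at Dex 2 h, and 37.5 and 39.1 at Dex 4 h, a fall by 0.87 on the log2 scale (SE 0.11, adjusted p = 0.0015). At 4 h it remained far above vehicle. CNKSR3, a scaffold of the aldosterone-responsive sodium channel complex, fell from 22.6 and 22.2 to 14.1 and 15.0. The transcriptional repressor gene BCL6 fell from 26.5 and 28.3 to 12.9 and 14.1, with 7.25 and 4.67 in the vehicle samples. RASD1, a Ras-like protein named for its induction by Dex, fell from 6.82 and 7.29 to 4.23 and 4.73. The other partly returned genes were NR1D1, the clock repressor REV-ERBα (9.27 and 9.64 RPKM, then 5.96 and 5.79), and the kinase gene PIM1 (29.8 and 32.7, then 21.4 and 19.6). These 6 genes were all lower in both 4 h samples than in both 2 h samples. The fall exceeded that with CpdA, by limma at the same limits, in 2 of the 6. Between the CpdA times the mean of BCL6 went from 12.5 to 7.33 RPKM and that of RASD1 from 26.6 to 7.91.

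Returned raised genes were no longer past an adjusted p of 0.05 against vehicle at 4 h (limma). SIK1, a salt-inducible kinase, had 61.7 and 66.9 RPKM at 2 h and 29.9 and 29.5 at 4 h, with 36.8 and 20.4 in the vehicle samples (log2 difference between the times -1.11, SE 0.21, adjusted p = 0.009). Against the vehicle sample of its own time, SIK1 was 0.80 higher on the log2 scale at 2 h and 0.54 higher at 4 h. C10orf10, a gene also known as DEPP1, had 7.64 and 7.88 and then 3.56 and 3.59, with 4.05 and 2.68 in vehicle. Set against the lone vehicle sample of 4 h, SIK1 and C10orf10 (0.40 higher on the log2 scale) still passed an adjusted p of 0.05 (limma), both under a fold of 2, while their class rests on the mean of both vehicle samples. NLRP3, the inflammasome sensor, had 1.28 and 1.58 and then 0.698 and 0.927. IKZF2 completed the group together with the microRNA gene MIR3655, whose values were 2.78 and 0.997 at 2 h and 0.000138 and 0.0392 at 4 h. Of these 5 raised genes, 2 (C10orf10 and MIR3655) fell beyond the CpdA time difference by limma. Between the CpdA times the mean of SIK1 went from 57.1 to 32.1 RPKM and that of NLRP3 from 0.42 to 0.168. Transient lowered genes were BMP4, a bone morphogenetic protein ligand, and SOCS3, a feedback inhibitor of cytokine signalling, both partly returned, and 5 returned genes. BMP4 had 116 and 136 RPKM in vehicle, 41.9 and 38.4 at 2 h and 67.1 and 59.7 at 4 h. SOCS3 had 6.64 and 9.39 in vehicle, 2.52 and 2.42 at 2 h, and 4.57 and 4.19 at 4 h. The 5 returned genes were the small RNA genes SNORD34, SNORD35A, SNORD35B, SNORD28 and MIR1304, all very short, with duplicates as far apart as the 0.592 and 2.04 RPKM of SNORD35B at 2 h. Small RNA genes lie inside longer host genes, and reads of gene and host cannot be told apart in these values.

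Late lowered genes had a median vehicle level of 4.26 RPKM and included several very long genes. NAV3, a neuron navigator protein of the microtubule plus end, had 3.93 and 5.08 RPKM in vehicle, 2.98 and 3.19 at Dex 2 h and 0.732 and 1.14 at Dex 4 h (log2 difference between the times -1.65, SE 0.18, adjusted p = 0.00058). PDE7B, a cyclic AMP phosphodiesterase, had 2.64 and 2.94 at 2 h and 0.596 and 0.833 at 4 h (log2 -1.84, SE 0.26). IL1RAPL1, a member of the interleukin-1 receptor family, had 3.41 and 3.83 and then 0.916 and 1.36 (log2 -1.61, SE 0.17). FRMD5, a FERM domain protein, had 7.52 and 7.11 and then 2.99 and 2.74, with 8.06 and 8.46 in vehicle (log2 -1.32, SE 0.07). MAST4, a microtubule-associated kinase, had 1.27 and 1.39 and then 0.358 and 0.560 (log2 -1.38, SE 0.17). In all 5 genes the 4 h samples lay below both vehicle samples and both 2 h samples. Vehicle held 2.90 and 1.47 RPKM of PDE7B, 4.60 and 3.42 of IL1RAPL1 and 2.02 and 1.70 of MAST4. Vehicle replicate 2 was thus lower in these genes, and higher in NAV3 and FRMD5. For PDE7B the vehicle difference was -0.94 on the log2 scale, against -1.84 with Dex. ADORA2A, an adenosine receptor gene, had 3.31 and 3.64 at 2 h and a wide pair of 1.82 and 0.507 at 4 h (log2 -1.73, SE 0.40, adjusted p = 0.024).

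Still growing lowered genes included cytokine genes. CSF2, which encodes the cytokine GM-CSF, had 12.8 and 6.08 RPKM in vehicle, 1.14 and 1.19 at Dex 2 h and 0.353 and 0.612 at Dex 4 h (log2 difference between the times -1.15, SE 0.31, adjusted p = 0.041). IL11, a cytokine of the IL6 family, had 10.2 and 7.80 in vehicle, 1.94 and 1.98 at 2 h and 1.06 and 1.09 at 4 h (log2 -0.82, SE 0.10). CCL2, a monocyte chemoattractant, fell from 0.299 and 0.194 to 0.0494 and 0.0238, levels of very few reads. TRAF1, an adaptor of tumour necrosis factor receptors, fell from 4.42 and 4.96 to 2.07 and 2.36. SGK223, a pseudokinase gene now named PRAG1, had 33.1 and 32.5 in vehicle, 11.6 and 11.5 at 2 h and 4.96 and 5.27 at 4 h (log2 -1.16, SE 0.05, adjusted p = 8.5e-06). PRSS22, a serine protease, had 1.88 and 1.67 and then 1.05 and 0.732. The samples of each of these genes were separate between the times, and CSF2 and CCL2 had the widest spread between duplicates.

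Sustained lowered genes were led by inflammatory and growth factor genes. IL6, the central inflammatory cytokine gene, had 28.0 and 11.2 RPKM in vehicle, 1.29 and 1.40 at Dex 2 h and 1.82 and 1.86 at Dex 4 h (log2 difference between the times 0.43, SE 0.32, adjusted p = 0.41). IER3, an immediate early gene, had 9.76 and 11.4 and then 10.0 and 10.4, against 116 and 62.9 in vehicle. HBEGF, a ligand of the EGF receptor, had 10.4 and 10.9 and then 7.82 and 7.13, against 84.2 and 45.0 in vehicle. CXCL8, the neutrophil chemoattractant interleukin-8, had 4.81 and 5.77 and then 4.85 and 4.90, against 44.2 and 18.7 in vehicle. In all 4 genes vehicle replicate 2 was well below vehicle replicate 1, whereas the Dex samples were already low at 2 h.

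Among the unresolved genes, LIF, a cytokine of the IL6 family, and CD274, the immune checkpoint ligand PD-L1, passed the test between the times but not the 1.5-fold limit. LIF had 43.3 and 28.7 RPKM in vehicle, 17.3 and 19.8 at Dex 2 h and 12.7 and 12.7 at Dex 4 h (log2 difference between the times -0.54, SE 0.15, adjusted p = 0.0475). CD274 had 12.7 and 8.55, 5.58 and 5.07, and 3.44 and 3.72 in the same order (log2 -0.56, SE 0.15, adjusted p = 0.04). Both genes were lower in each 4 h sample than in each 2 h sample. PDGFB, a platelet-derived growth factor, showed a larger difference with a wider error (log2 -1.20, SE 0.43, adjusted p = 0.098). Its Dex duplicates were close (2.05 and 2.01 RPKM at 2 h, 0.887 and 0.773 at 4 h). The error also takes in the gap between its vehicle samples (7.19 and 2.11 RPKM), which the fit treats as replicates. The long noncoding RNA gene IGFBP7-AS1 had discordant duplicates of 0.155 and 4.29 RPKM at Dex 2 h, so its class rests on 1 sample.

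The promoters of 4 genes are shown because their genes took different time courses while holding the same NF-κB letters. They were picked for these letters from a larger set of promoters, in which FKBP5, PER1 and TSC22D3 held no NF-κB or AP-1 match. NF-κB is the inflammatory transcription factor that GR is known to restrain. In the study, few of the GR locations that responded to Dex coincided with NF-κB sites. The sequences are the 250 bases before the RefSeq transcription start on build GRCh38.p14, 5′ to 3′, with capitals marking matches on either strand to GGANTTTCC (NF-κB) or TGANTCA (AP-1). CXCL8 (chr4:73740319-73740568 on the plus strand) and IL6 (chr7:22726950-22727199 on the plus strand) were sustained lowered, NFKBIA (chr14:35404750-35404999 on the minus strand), the NF-κB inhibitor IκBα, was sustained raised, and SGPP2 (chr2:222423738-222423987 on the plus strand) was still growing.
CXCL8: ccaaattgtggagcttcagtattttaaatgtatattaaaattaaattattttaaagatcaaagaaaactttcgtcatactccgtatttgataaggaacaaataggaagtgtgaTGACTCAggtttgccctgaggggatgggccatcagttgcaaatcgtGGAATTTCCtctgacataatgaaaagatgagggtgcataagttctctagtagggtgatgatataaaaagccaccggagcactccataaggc
IL6: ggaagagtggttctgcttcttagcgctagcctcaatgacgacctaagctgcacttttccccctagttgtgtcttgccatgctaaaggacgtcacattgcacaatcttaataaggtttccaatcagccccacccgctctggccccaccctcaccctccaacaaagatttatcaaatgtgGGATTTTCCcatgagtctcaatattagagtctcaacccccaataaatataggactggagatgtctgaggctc
NFKBIA: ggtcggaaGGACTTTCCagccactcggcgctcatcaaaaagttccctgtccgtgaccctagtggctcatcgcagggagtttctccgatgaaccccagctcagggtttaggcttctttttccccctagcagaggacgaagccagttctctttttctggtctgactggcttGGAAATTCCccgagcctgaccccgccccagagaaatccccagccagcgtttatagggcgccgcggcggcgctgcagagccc
SGPP2: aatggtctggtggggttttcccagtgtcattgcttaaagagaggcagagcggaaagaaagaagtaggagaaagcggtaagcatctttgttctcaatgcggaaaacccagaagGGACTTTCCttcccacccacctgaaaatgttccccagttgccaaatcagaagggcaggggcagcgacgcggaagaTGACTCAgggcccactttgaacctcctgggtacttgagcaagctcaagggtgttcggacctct
CXCL8 and SGPP2 each held 1 NF-κB and 1 AP-1 match, IL6 held 1 NF-κB match, and NFKBIA held 2 NF-κB matches. In windows of 300 bases (250 before and 50 after the start), the NF-κB letters occurred in 1.65% of 27195 RefSeq promoters and the AP-1 letters in 7.73%. Among the 9966 promoters matched to the 12713 genes tested, the shares were 1.63% and 4.48%. A match is a description of the letters and not a bound site. NFKBIA had 47.9 and 37.8 RPKM in vehicle, 132 and 126 at Dex 2 h and 143 and 128 at Dex 4 h. Shares of motifs over the classes are void, since the promoter table matched fewer than 80% of the late, of the still growing and of the sustained genes.

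The vehicle samples addressed how much of the Dex time difference also occurred without Dex. Over all 12713 genes the vehicle difference (replicate 2 minus replicate 1) had a median of -0.0026 on the log2 scale, and it had the same sign as the Dex time difference in 62.5% of genes. Across genes the 2 differences had a Pearson correlation of 0.25 (Spearman 0.345, n = 12713 genes). They share no sample, and genes are not independent replicates. The 170 genes higher at Dex 4 h had a median vehicle difference of 0.06 against a median Dex time difference of 0.83, and 58.8% had the same sign. In 12 of them (7.06%) the vehicle difference was at least 50% of the Dex difference on the log2 scale, and in 0 of them it was as large. The 267 genes lower at Dex 4 h had a median vehicle difference of -0.18 against -0.76, and 76% had the same sign. In 69 of them (25.8%) the vehicle difference was at least 50% of the Dex difference, and in 6 it was as large. Of the 18 transient genes, 14 (77.8%) had a vehicle difference of the same sign as the Dex difference. In 5 of them (27.8%) it was at least 50% of the Dex difference, and in 0 it was as large. The vehicle difference has no replicates and carries no test of its own.

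**Figure D3:**
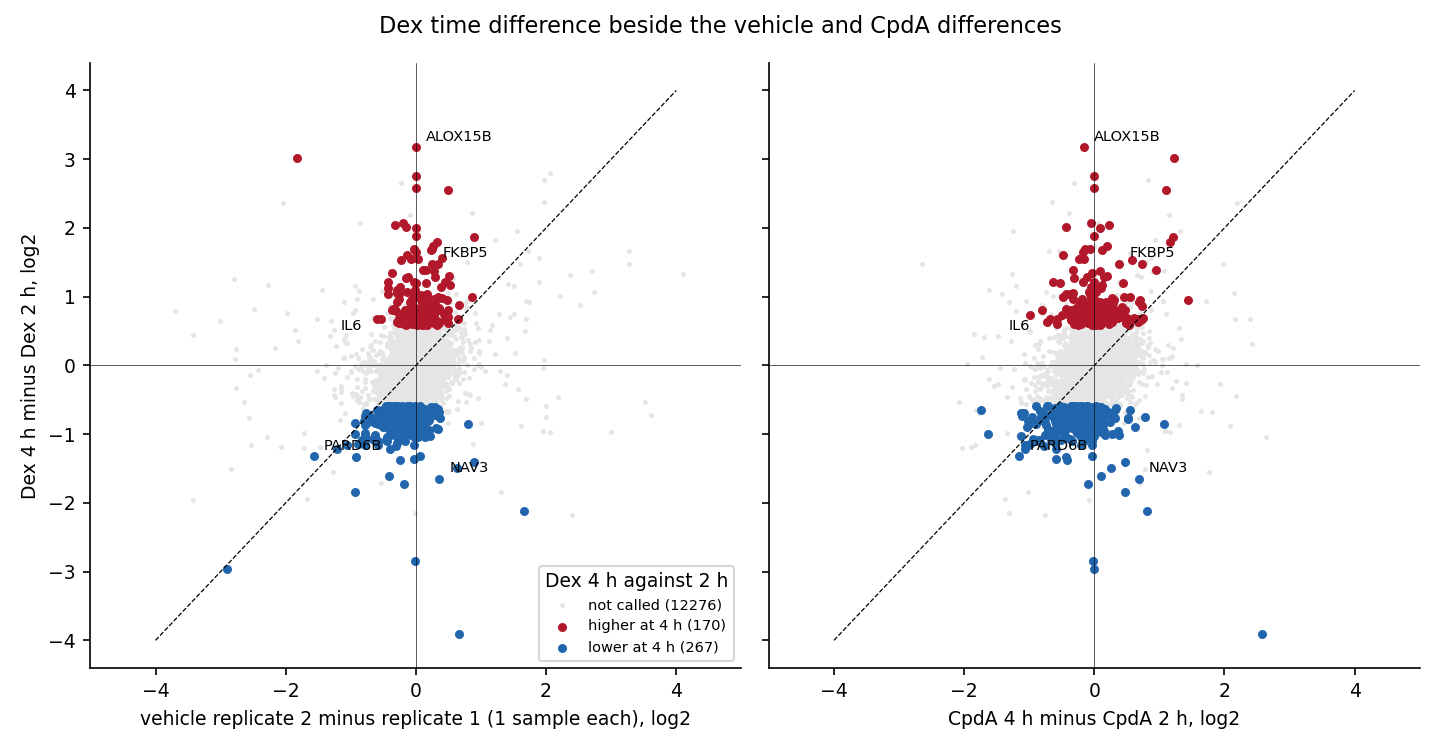
Dex time difference (4 h minus 2 h, log2, vertical axis) against the vehicle difference (left) and the CpdA time difference (right), both log2 on the horizontal axis, 1 point per gene, with genes higher or lower at Dex 4 h coloured and the dashed line marking equal differences. ALOX15B and FKBP5 stand far above the line in both panels, PARD6B lies close to it in both, and NAV3 moved the opposite way in vehicle and CpdA.

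The difference between the Dex and vehicle differences was tested with each vehicle sample as its own group, the spread coming from the other 4 groups and the lone vehicle samples being assumed to vary like them. It passed an adjusted p of 0.05 and a fold of 1.5 in 204 genes (1.6%, limma), a count that was 420 without Dex 4 h replicate 2 and 75 and 76 without Dex 2 h replicate 1 or 2. Among the 437 genes that moved with Dex, 130 passed in the direction of the Dex difference, 63 of the 170 higher and 67 of the 267 lower genes. By class it passed in 47 of 84 still growing raised genes, 41 of 74 still growing lowered, 10 of 30 late raised and 8 of 44 late lowered genes. FKBP5 (log2 difference beyond vehicle 1.24, adjusted p = 0.0022), ALOX15B (3.18, adjusted p = 0.0076) and FRMD5 (-1.39, adjusted p = 0.0042) passed. ATF3, a stress-induced transcription factor in the late lowered class, did not: it had 8.01 and 8.31 RPKM at Dex 2 h and 3.37 and 3.56 at Dex 4 h, but also 13.05 and 5.57 in the vehicle samples (log2 beyond vehicle -0.00086, adjusted p = 0.998). PARD6B, a cell polarity gene, had 4.78 and 5.18 and then 1.91 and 1.94 with Dex, against 11.2 and 3.69 in vehicle (0.25, adjusted p = 0.47). CSF2 (-0.10, adjusted p = 0.95), SIK1 (-0.26, adjusted p = 0.18) and BCL6 (-0.39, adjusted p = 0.11) did not pass either. ALOX15B passed the filter through Dex 4 h alone, so it could only pass as higher with Dex. A gene that misses this test was not shown to follow vehicle.

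The sustained lowered cytokine genes were also set against the vehicle sample of their own time, which is 1 sample per time whose spread is taken from the other groups. IL6 was 4.28 lower on the log2 scale than vehicle replicate 1 at Dex 2 h and 2.54 lower than vehicle replicate 2 at Dex 4 h, and its difference between the Dex and vehicle differences was 1.74 (adjusted p = 0.0029, limma). The corresponding difference was 1.12 for CXCL8 (adjusted p = 0.013) and 0.83 for IER3 (adjusted p = 0.015), and it did not pass for HBEGF (0.40, adjusted p = 0.15). With the vehicle sample of each time as the reference for sorting, 48 of the 74 late genes, 141 of the 158 still growing genes and 134 of the 154 sustained genes kept their class.

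CpdA gave a replicated reference for the same interval, with a ligand of its own and no sample shared. From 2 h to 4 h of CpdA, 220 genes changed past the same limits (1.73%). The difference between the Dex and CpdA time differences passed in 344 genes (2.71%), a count that was 578 without Dex 4 h replicate 2 and 226 and 228 without Dex 2 h replicate 1 or 2. These 344 held 102 of the 170 genes higher at Dex 4 h and 68 of the 267 lower genes. The median CpdA time difference was 0.02 on the log2 scale in the higher genes and -0.29 in the lower genes. Of the lower genes, 218 (81.6%) also had a lower mean at CpdA 4 h than at 2 h, and 41 passed the CpdA test in that direction. Of all genes tested, 62.9% had the same direction between the times with both ligands. FKBP5 went from 5.97 and 6.08 RPKM after 2 h of CpdA to 7.80 and 7.96 after 4 h, and its Dex time difference was larger by 1.10 (adjusted p = 0.00074). NAV3 rose with CpdA, from 3.39 and 3.80 to 5.66 and 5.99, and fell with Dex (difference of differences -2.33, adjusted p = 0.0014). DUSP5, a nuclear phosphatase of ERK, fell with both ligands, from 61.2 and 65.9 to 29.1 and 33.4 with Dex and from 127 and 129 to 59.4 and 57.9 with CpdA, and the difference between the ligands did not pass the test (0.10, adjusted p = 0.89), which does not show that they were equal.

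The 187 genes that moved without passing the limits against vehicle at either time were 49 higher and 138 lower. Of the 138 lower genes, 120 (87%) were also lower in vehicle replicate 2 and 124 were lower at CpdA 4 h than at CpdA 2 h, and the Dex difference passed beyond vehicle in 16 of them. Chosen after their values were seen, PFKFB4, a glycolytic regulator, and EGLN3, an oxygen-sensing prolyl hydroxylase, show this pattern. PFKFB4 went from 9.86 and 9.78 RPKM to 4.41 and 4.34 between the Dex times, against 10.2 and 5.43 in the vehicle samples. EGLN3 went from 6.93 and 6.22 to 3.42 and 2.75, against 5.87 and 3.68 in vehicle. Both are textbook targets of the hypoxia response, but they were picked from the 138, no list of such targets was examined, and hypoxia was not tested. Of the 49 higher genes, 36 (73.5%) were also higher in vehicle replicate 2. With CpdA, 33 of the 49 had a higher mean at 4 h than at 2 h. MYC was not among the 36 genes higher in vehicle replicate 2. It had 64.7 and 61.8 RPKM at Dex 2 h, below both vehicle samples (89.7 and 75.3). At Dex 4 h it had 102 and 102, above both (log2 difference between the times 0.69, SE 0.07, adjusted p = 0.00054, limma). ID1, an inhibitor of helix-loop-helix transcription factors that responds to BMP signals, had 5.81 and 5.25 at 2 h and 14.5 and 11.3 at 4 h, with 7.24 and 7.25 in vehicle (log2 1.196, SE 0.12). Both genes crossed vehicle between the times, and the difference beyond vehicle, which rests on 1 vehicle sample per time, had an adjusted p of 0.0042 and 0.041 (limma).

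Lists of genes by role showed where the movement lay, with 1.34% of all genes called higher and 2.1% lower as the background. Of 30 glucocorticoid-induced genes, all tested, 8 rose (FKBP5, ZBTB16, GLUL, MT2A, MT1X, CDKN1C, RGS2 and SCNN1A) and 1 fell (PDK4), while 18 were sustained. Their median log2 difference between the times was 0.06, and their median vehicle difference was -0.16. DUSP1, a phosphatase of p38 and JNK among the sustained genes, had 101 and 101 RPKM at 2 h and 122 and 125 at 4 h (adjusted p = 0.053). Of 16 tested cytokines and chemokines, 0 rose and 4 fell (CCL2, CX3CL1, CSF2 and IL11), with a list median of -0.10 and a vehicle median of -0.52. At an adjusted p of 0.05 without a fold limit, 0 rose and 6 fell in the same limma fit, with 4.55% of all genes higher and 9.02% lower as the background. Of 26 immediate early transcription factors 1 rose (MYC) and 2 fell (ATF3 and MAFF). That list had a median of -0.31 with Dex, -0.62 between the vehicle samples and -0.67 with CpdA. ZBTB16 passed the filter through Dex 4 h alone and could only be called higher. The lists were chosen with results of these data known, and their counts are descriptions.

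The signalling lists follow, read against a table in which 267 genes were lower and 170 higher, a lean that was absent under median scaling (207 and 207). Of 16 growth factor ligands and receptors, 0 rose and 3 fell: VEGFC, a lymphangiogenic ligand (23.6 and 25.6 RPKM at 2 h, 15.2 and 14.5 at 4 h), FGF5 and the EGF receptor ligand gene TGFA. Of 20 TGF-β and YAP target genes, ID1 and ID3 rose and 4 fell (CTGF, SNAI1, INHBA and FST). FST, a secreted inhibitor of activins, fell from 28.8 and 27.6 RPKM to 15.6 and 13.9 with vehicle at 39.8 and 40.0. CTGF, a matricellular YAP target, fell from 342 and 318 to 177 and 153 with vehicle at 466 and 244 (log2 beyond vehicle -0.07, adjusted p = 0.91). Of 10 MAP kinase phosphatases DUSP2 and DUSP5 fell, and of 17 NF-κB subunits and feedback inhibitors REL and TRAF1 fell. Of 16 circadian clock genes 1 rose (CIART) and 2 fell (NR1D1 and DBP).

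Metabolic lists held calls in both directions, and no reference gene passed the 1.5-fold limit. Of 20 fuel and lipid genes, ALOX15B, ACSL1 and GLUL rose, and PDK4 and G0S2, an inhibitor of the lipase ATGL, fell (G0S2 45.5 and 48.2 RPKM at 2 h, 26.3 and 27.5 at 4 h). Of 13 tested G1 cyclins and CDK inhibitors CDKN1C and MYC rose and CCNE2 fell. ALOX15B could only be called higher, since Dex 4 h alone brought it past the filter. Of 18 cholesterol genes only ABCA1, the cholesterol exporter, was called, and it fell. Of 13 genes of GR and its chaperones, FKBP5 rose. NR3C1, the gene of GR itself, had 14.6 and 14.7 RPKM at Dex 2 h and 9.96 and 12.1 at Dex 4 h, with 22.9 and 20.4 in vehicle (log2 -0.41, SE 0.09, adjusted p = 0.015), a fall below the 1.5-fold limit. None was called at that limit among 19 S phase and mitosis genes, 15 reference genes, 14 integrated stress response genes, 10 matrix proteases and inhibitors, or the RT-PCR panel (BIRC3, PTPN1, NFKBIA, NEDD9 and STK4). Without a fold limit, limma called 1 higher and 7 lower S phase and mitosis genes, 0 and 1 reference genes, 1 and 0 stress response genes, 1 and 3 protease genes, and 0 and 0 RT-PCR genes, against the same background of 4.55% and 9.02%. Of these last genes BIRC3, which encodes an inhibitor of apoptosis, had 52.8 and 55.6 RPKM at 2 h and 36.7 and 43.0 at 4 h (log2 -0.45, SE 0.24, adjusted p = 0.25).

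Gene span was a property that the classes did not use, and it was examined after their leading genes were seen. Spans came from GENCODE v44 on GRCh37, the build of the alignment, and matched 97.4% of genes by symbol or synonym. The median span was 30.6 kb over all genes tested, 67.8 kb in late raised and 71.8 kb in late lowered genes, and 17.9 kb in sustained raised and 15.2 kb in sustained lowered genes. Spans above 100 kb made up 18.2% of all genes, 47.2% of late, 31.2% of still growing and 15.3% of sustained genes. NAV3 spans 888 kb (chr12:77718421-78606790), the longer IL1RAPL1 lies at chrX:28605563-29974835, MAST4 573 kb (chr5:65892208-66465421), PTPN13 221 kb (chr4:87515468-87736324) and DNER 357 kb (chr2:230222345-230579271). Among sustained genes, IL6 spans 6.12 kb (chr7:22765503-22771621), IER3 1.35 kb (chr6:30710976-30712325) and PER1 16.0 kb (chr17:8043790-8059824). FGD4, at 246 kb (chr12:32552492-32798984), was a long gene in the sustained class. Of the 138 lower genes in no class, 41% of those matched spanned more than 100 kb. With a pseudocount of 1, 8 of the 15 genes then classed as late did so. Among the genes sorted into a class that spanned over 300 kb, 7 of 12 raised and 15 of 22 lowered genes were late. Of all 519 sorted genes, 74 were late. The median vehicle difference was -0.18 in these 12 raised and -0.25 in these 22 lowered genes. Their median Dex time differences were 0.81 and -1.015. The late lowered KIAA0754 is counted among the 22 with the 406 kb span of MACF1, which it received through a synonym. Low expression moved with the late raised class as well, and its part in this pattern was not tested.

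**Figure D4:**
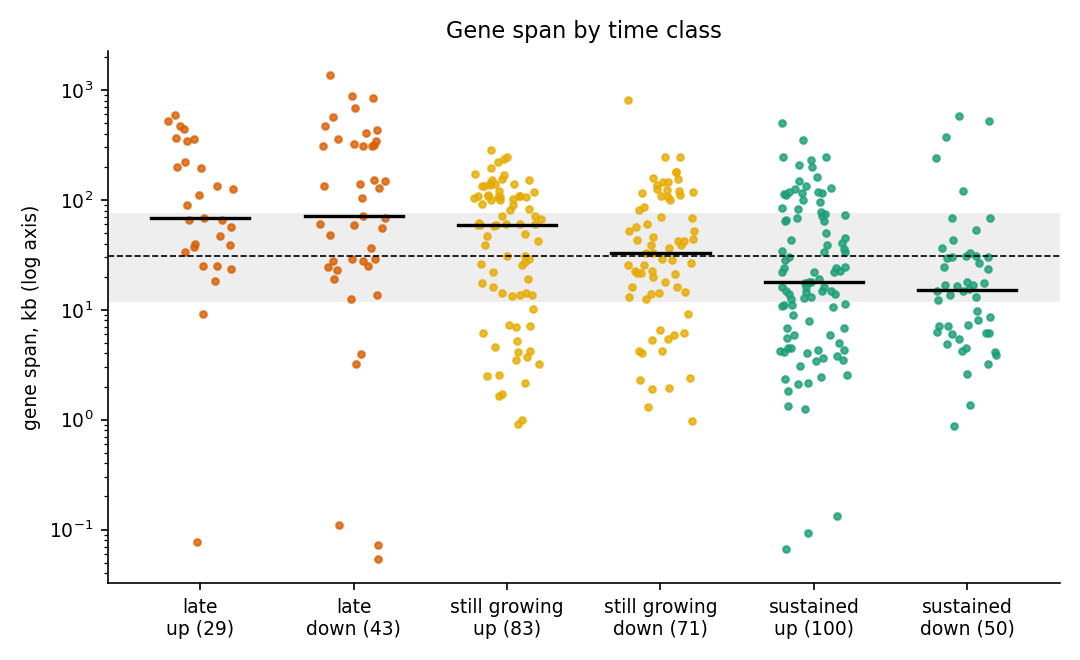
Gene span in kb (log vertical axis) of late, still growing and sustained genes by direction, 1 point per gene with the number of genes matched in the labels and a black line at each median, the dashed line and grey band giving the median and quartiles of all genes tested. The late medians (67.8 and 71.8 kb) lie above the dashed line at 30.6 kb, and the sustained medians (17.9 and 15.2 kb) lie below it.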

How the data were processed

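RNA from 10 samples of MDA-MB-231 cells was sequenced as single-end reads from TruSeq libraries. Reads were aligned by the authors to hg19 with TopHat 2.0.13 and quantified in Partek 6.6 software. Deposited files hold RPKM, 1 value per gene symbol and sample. Read totals are not given in the sources used here, so precision rests on duplicates. Groups came from the sample labels, and the vehicle times from the column headers of the deposited tables. RPKM values were not normalized further, and limma 3.58.1 (R 4.3.3) was run on log2(RPKM + 0.1) over 5 groups, with an abundance trend in eBayes. The limma fits and the class rule were tested on simulated data with seeded late and sustained genes, changed by 1.5 on the log2 scale. All 100 late and all 100 sustained genes received their class. No still growing or transient gene was seeded, nor any gene of low vehicle level, so the simulation did not cover these. The vehicle difference was fitted with the vehicle samples as separate groups. Named genes were the 10 greatest increases and decreases between the times (fold above 2, at least 1 RPKM, no overlap), the 4 greatest per class and direction, and members of the lists, of which 1 is not reported here. The members and lists were chosen with earlier results of these data known. Alternatives changed the pseudocount, filter, scaling, variance model, samples, reference and fold limits. ChIP samples were not used here. Tables and figures used Python 3.11.15 with pandas 2.3.3 and matplotlib 3.10.9.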

Additional observations from a re-analysis of the deposited data

Results flagged for a closer look

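The change from 2 h to 4 h differed between the ligands, by the limma test of the difference between the Dex and CpdA time differences, in 344 genes, 184 of them with the more positive change under Dex and 160 with the more positive change under CpdA. The genes named by the rule, or moved members of the lists, that passed this test and are reported are given here by the Dex minus CpdA time difference on the log2 scale, 2 samples per group. The difference was positive in ALOX15B (3.34), ZBTB16 (2.59), SGPP2 (2.12), IL6 (1.90), DNER (1.85), ZDHHC8P1 (1.83), CIDEC (1.81), ID1 (1.72), PTPN13 (1.56), CDKN1C (1.35), ID3 (1.24), FKBP5 (1.10), RASD1 (1.09), BMP4 (1.01), MYC (0.99), SCNN1A (0.91), ACSL1 (0.87), RGS2 (0.84), GATA3 (0.71), GLUL (0.62), MT1X (0.62), MT2A (0.60). It was negative in VEGFC (-0.64), FGF5 (-0.72), G0S2 (-0.81), IL11 (-0.81), SGK223 (-0.96), PRSS22 (-0.98), TRAF1 (-0.99), PDK4 (-0.99), FST (-1.01), C10orf10 (-1.06), FRMD5 (-1.28), ABCA1 (-1.30), DUSP2 (-1.52), IL1RAPL1 (-1.71), PDE7B (-2.32), NAV3 (-2.33), MIR3655 (-6.50). IL6 had 1.29 and 1.40 RPKM at Dex 2 h and 1.82 and 1.86 at Dex 4 h, a difference that was not called, against means of 58.0 RPKM (SD 2.09) and then 20.8 (SD 1.66) with CpdA. ALOX15B, CIDEC and ZBTB16 passed the filter through Dex 4 h alone, so in this test they could only be called positive. RASD1 fell with both ligands, further with CpdA. In MIR3655 the value rests on single samples, since CpdA 4 h replicate 2 held 2.05 RPKM and replicate 1 held 0.069.

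Groups of 2 samples were too small to search for outlying samples.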

How the results depend on the processing

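Most counts stayed within 1.5 times under the alternatives, and those that did not are these. With a pseudocount of 1 the higher and lower genes were 110 and 122, late genes 15, transient genes 9, lower genes with a lower vehicle replicate 2 were 95, higher genes with a higher one 61, and late genes over 100 kb 8. The RPKM minimum of 1 in every Dex or every vehicle sample left 40 late genes, by construction since it removes low genes. Without moderation there were 146 lower and 6 transient genes. A fold above 2 between times gave 50 higher, 48 lower, 43 late, 34 still growing and 9 transient genes, and a fold above 1.2 gave 421, 876 and 32 transient genes. A fold of 1.5 against vehicle gave 182 late, 330 sustained and 28 transient genes.

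Leaving out 1 replicate in turn gave 133 to 227 higher and 155 to 494 lower genes, the highest without Dex 4 h replicate 2. The tests against vehicle and CpdA then gave 75 to 420 and 226 to 578 genes, the highest again without Dex 4 h replicate 2 (a lone sample being assumed to vary like the other groups). Late genes then numbered 53 to 94, still growing 115 to 180, sustained 145 to 166 and transient 10 to 26, with 10 transient genes without Dex 4 h replicate 1.

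The replicate numbers were not taken to pair the samples, which the labels do not state: correlations of the deviations ranged from -0.06 (Dex 2 h with Dex 4 h) to 0.20 (Dex 4 h with CpdA 2 h) over the pairs of groups. With the replicate number as a block, 172 genes were higher and 266 lower. Between the times IER3 read 0.0094 on the log2 scale under median scaling and -0.16 to 0.066 with 1 replicate left out, CXCL8 read -0.24 to 0.017 and PER1 -0.012 to 0.11 with 1 left out, the turned signs of IER3 and CXCL8 coming without Dex 2 h replicate 2 and that of PER1 without Dex 2 h replicate 1, none of the 3 genes being called between the times. Of the other values of single named genes, 596 kept their side of the threshold, 122 lost the call, most often MIR27A, LIF, PARD6B, CSF2 and CD274, and 7 gained one. The 3 alternatives of the vehicle sign counts and of the long late genes were chosen after seeing the data. The cause of these changes was not tested. Depth limits the genes of lowest RPKM, where few reads set the value, but no limit in RPKM was worked out.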
